A study of Homo sapiens with 6 samples.

Results

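Broad loops are chromatin loops in which the loop caller had merged 20 or more significant pixels of the contact map into a single call. They were taken as the rows of the deposited loop list whose merged pixel count was at least 20. The rule was met by 800 of 46849 loops, or 1.71% (exact Clopper-Pearson 95% interval 1.59 to 1.83%, for counting error only). The list comes from Micro-C in wild-type HAP1, a near-haploid human line derived from the leukaemia line KBM-7; sorted diploid cells were used. The 6 replicates form 1 group with no treatment or edit, and the list does not tell them apart. Every value below therefore stands for the list as a whole, without a replicate error. The pixel count that chose the loops comes from the same map as their contacts, radius and strength, so all comparisons are descriptions without a test. The pixels counted are 5 kb or 10 kb squares, and all positions are hg19 as named in the submitters' processing notes.

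In Micro-C, micrococcal nuclease cuts chromatin between nucleosomes before contacting ends are ligated, and a loop shows as a spot of raised contact away from the diagonal of the map. Many such spots are known to form where the cohesin ring, which extrudes chromatin, is held at CTCF bound to DNA at both anchors, and others join promoters with enhancers. A loop caller of the HiCCUPS kind tests single pixels against their surroundings and then merges neighbouring significant pixels into a cluster. It reports the pixel kept for the loop, the number of pixels merged, and the centroid and radius of the cluster. A broad loop can thus be a filled spot or a set of scattered pixels joined by the merging step, and the list does not say which pixels were merged.

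All 800 broad loops had 5 kb anchors. Loops with 10 kb anchors, 7127 in number, reached at most 15 merged pixels, and only 22 of them reached 10. The rule counts pixels whatever their size, and a 10 kb pixel covers a larger area of the map than a 5 kb pixel. The absence of broad loops with 10 kb anchors thus does not show that their clusters cover less of the map. Broad loops were 2.01% of the 39722 loops with 5 kb anchors (exact interval 1.88 to 2.16%). They held a median of 23 pixels (quartiles 21 and 28, highest 86), against a median of 3 over the whole list. Though few, they held 9.65% of all merged pixels, with 5 kb and 10 kb pixels counted alike. Loops of 2 to 5 pixels, which serve for comparison, numbered 31445 in all and 25715 with 5 kb anchors.

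**Figure D1:**
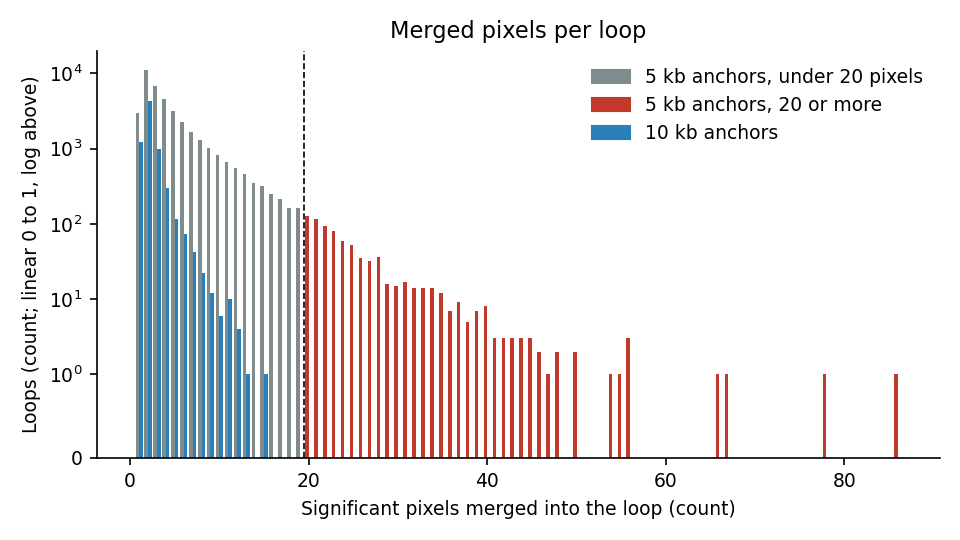
Number of loops (vertical axis, linear up to 1 and logarithmic above) by the number of merged pixels (horizontal axis), for 5 kb anchors below (grey) and at or above (red) the limit of 20 pixels, and for 10 kb anchors (blue). The counts fall smoothly through the limit, marked by the dashed line, and no loop with 10 kb anchors lies beyond 15 pixels.

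The limit of 20 pixels marks no step in the list. There were 162 loops of 18 pixels, 162 of 19, 126 of 20 and 117 of 21. Their median observed counts were 97, 97, 106 and 91 contacts. Their median ratios of observed to expected contacts were 7.94, 7.07, 7.74 and 5.92. Median radius was 22.1, 28.0, 27.7 and 36.3 kb, and median span 130, 97.5, 85 and 85 kb. Loops just inside and just outside the limit were therefore much alike in contacts, while those just inside had shorter spans than those of 18 pixels.

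Broad loops were mostly short. Their median span was 85 kb (exact order-statistic 95% interval 80 to 85 kb, quartiles 60 and 135 kb), where span is the distance between anchor midpoints. Loops of 2 to 5 pixels with the same anchor width had a median span of 130 kb (interval 125 to 135 kb, quartiles 65 and 325 kb). Spans of 50 to 100 kb made up 45.8% of broad loops (366) and 26.6% of the comparison loops. Spans of 500 kb or more made up 1.50% (12 loops) and 13.6%. At the shortest span in the list, 35 kb, the shares were alike, 5.38% (43 loops) and 6.23%. Among all loops with 5 kb anchors, the share that was broad was 1.78% at 35 to 50 kb, 3.66% at 50 to 70 kb, 3.29% at 70 to 100 kb and 3.24% at 100 to 140 kb. It then fell to 2.21% at 140 to 200 kb, 1.32% at 200 to 280 kb, 0.695% at 280 to 500 kb and 0.257% at 500 kb to 1.5 Mb.

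The 3 longest broad loops spanned 1310, 1120 and 990 kb. On chromosome 7, 25895001 to 25900000 met 27205001 to 27210000 with 41 contacts over 20 pixels. On chromosome 16, 21590001 to 21595000 met 22710001 to 22715000 with 164 contacts over 22 pixels. On chromosome 12, 63265001 to 63270000 met 64255001 to 64260000 with 514 contacts over 45 pixels. The first of these had a ratio of observed to expected contacts of 11.8 and the other two 46.3 and 52.0. Exact Poisson 95% intervals on the counts were 29.4 to 55.6, 139.9 to 191.1 and 470.5 to 560.4 contacts, so the 3 counts differ beyond counting error. Of the 43 broad loops at the shortest span, 35 kb, the first 3 by position lay on chromosome 1. Of these, the loop from 1755001 to 1795000 had 89 contacts, that from 16175001 to 16215000 had 141 and that from 17765001 to 17805000 had 180.

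Radius separated short from long broad loops. Over all 800 the median radius was 40.3 kb (quartiles 24.4 and 60.9 kb, range 13.8 to 162.8 kb). Among the 107 broad loops of 200 kb or more, 73 (68.2%) had a radius under 25 kb and 9 (8.41%) one of 60 kb or more. Among the 471 broad loops under 100 kb the order was the other way, with 54 (11.5%) under 25 kb and 142 (30.1%) at 60 kb or more. The 222 loops between these spans held 78 (35.1%) and 56 (25.2%). Most long broad loops were thus compact clusters, while most short ones had a radius between these limits, with a median of 46.6 kb against 19.8 kb at 200 kb or more.

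The share of a cluster's disc that its pixels would fill gives the same contrast in another form. It is the area of the merged pixels over that of a circle with the reported radius. The disc of a short loop can cross the diagonal or reach distances under 35 kb, where the list holds no loop. This can lower the filled share at short spans, by an amount that was not tested. The median filled share was 9.18% under 100 kb, 13.4% at 100 to 200 kb and 43.1% at 200 kb or more. In the 200 members with the smallest radius (13.8 to 24.4 kb) the median filled share was 47.0%, and in the 200 with the largest (60.9 to 162.8 kb) 3.99%, although pixel counts differed far less, with medians of 22 and 30. The smallest radius of all, picked out afterwards, belonged to a loop of 20 pixels on chromosome 6 (166295001 to 166300000 with 166515001 to 166520000), whose pixels filled 84.0% of the disc.

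For 148 broad loops (18.5%) the radius was larger than the span itself, 147 of them under 100 kb. Among the 25715 comparison loops this held for 1, and among all loops of the list for 321 (0.685%). Loops outside both groups thus had it too. The clusters of the shortest loops also lay off the pixel kept for them. At 35 to 50 kb the centroid of a broad loop lay a median of 23.4 kb farther from the diagonal, in anchor distance, than the pixel kept for the loop, against 2.50 kb for comparison loops. Since no loop of the list spans less than 35 kb, a cluster in this class has little room towards the diagonal, and nothing is read from the direction. The median was 4.52 kb at 50 to 70 kb, then -4.19 kb at 70 to 100 kb and -6.25 kb at 100 to 140 kb, where the cluster lay slightly nearer the diagonal than its pixel. At 280 to 500 kb it was 0.576 kb. The kept pixel and the centroid lay a mean of 12.2 kb apart in the map for broad loops and 5.78 kb for comparison loops of like span and width.

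Radius also went with strength. When the members were put in 4 sets of 200 by radius, the set with the smallest radius had a median ratio of observed to expected contacts of 10.9 (123 contacts, 12.3 expected). The next sets had 7.86, 5.08 and 4.94, and the last a median of 103.5 contacts and 20.6 expected. Counts differed by less between the sets than expectations did. Across the 800 loops, Spearman's rho between radius and strength was -0.47. Span went with both, as longer loops had a smaller radius (rho = -0.36) and a higher ratio (rho = 0.63). The part of span in the relation was not tested. Within 6 classes of span, rho between radius and strength ranged from -0.22 (35 to 50 kb, n = 105) to -0.48 (100 to 140 kb, n = 133). The last class was wide, from 200 to 1310 kb (rho = -0.44, n = 107). Points share the map and its depth, and these values are descriptions. The number of pixels, in contrast, was almost unrelated to strength among broad loops (rho = -0.07).

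The comparison at matched span and anchor width set each broad loop against the median of the loops of 2 to 5 pixels in its own class. Classes combined anchor width with span, in 4 bins per doubling of span, and each of the 800 loops found one with at least 20 comparison loops. Broad loops had a radius 5.26 times that of their class (interval of the median 4.96 to 5.63, quartiles 3.20 and 7.78). Since the radius is that of the merged pixels, a larger one follows in part from the choice of loops.

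In every broad loop, observed contacts were above the median of its class. The observed count is the raw number of contacts in the pixel kept for the loop. Broad loops had a median of 112 contacts (quartiles 81 and 154, range 38 to 541), and comparison loops 26 (quartiles 18 and 37). Exact Poisson 95% limits give the counting error of a single loop. They were 92.2 and 134.8 for a loop of 112 contacts and 26.9 and 52.2 for one of 38. For a loop of 38 contacts on chromosome 3 (31955001 to 31960000 with 32000001 to 32005000), the class median of 36 lay within these limits. The count was 3.98 times the class median (interval 3.77 to 4.19, quartiles 2.79 and 5.73) and above it in 800 of 800 loops. Of all 5 kb loops that could be matched in this way, 62.6% were above. By chromosome the median ratio ran from 2.43 on chromosome 13 (10 broad loops) to 5.74 on chromosome 15 (59), with a median of 3.78 over 23 chromosomes.

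Part of that height was shared by the surroundings. The donut expectation, computed by the caller from a ring around the pixel, had a median of 17.0 contacts for broad loops and 7.30 for comparison loops. At matched span and width it was 1.80 times the class median (interval 1.75 to 1.85) and above it in 781 of 800 loops, against 59.4% of all 5 kb loops. The contact depth of the neighbourhood was raised less. Among other 5 kb loops within 500 kb, the donut expectation relative to loops of like span was 1.13 times that around comparison loops (interval 1.11 to 1.15), and the chromosome median was above 1 on 19 of 23 chromosomes. Whether pixels of a wide cluster fall into its own ring was not tested.

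The ratio of observed to donut-expected contacts, called strength, was 2.18 times the class median (interval 2.09 to 2.29, quartiles 1.50 and 3.20). It was higher in 759 of 800 broad loops, or 94.9%, against 61.5% of all 5 kb loops. The lowest chromosome median was 1.44 (chromosome 13) and the highest 2.55 (chromosome 19), so the ratio was above 1 on each of 23 chromosomes. Against the lower-left surroundings, which lie towards the diagonal, the ratio was 2.15. Against the horizontal and vertical ones, which follow the row and the column of the pixel, it was 1.89 and 1.88. The larger of the row and column expectations was a mean of 1.46 times the donut in broad loops. In comparison loops of like span and width it was 1.25 times. Taking the larger of 2 values favours ratios above 1, so only the difference between the groups is read. Whether pixels of a wide cluster raise its own row and column values was not tested.

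**Figure D2:**
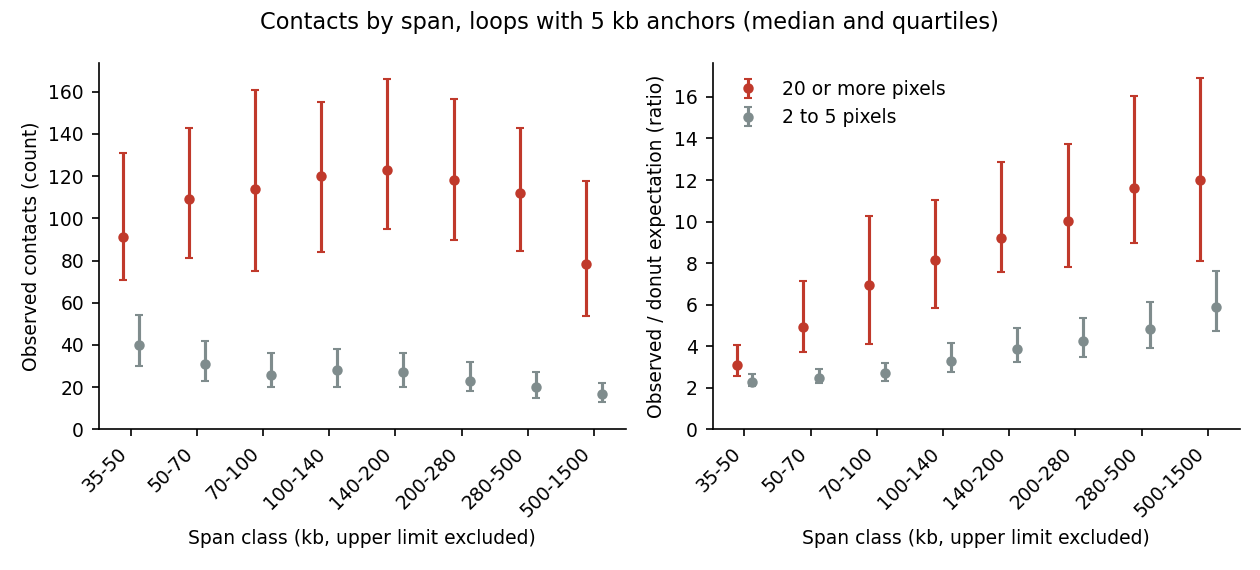
Observed contacts (left) and the ratio of observed to donut-expected contacts (right) by span class, for loops with 5 kb anchors of 20 or more pixels (red) and of 2 to 5 pixels (grey). Points are medians and bars run from the lower to the upper quartile over loops. In each class the red median lies above the grey one, and the gap in strength is smallest at 35 to 50 kb (3.09 against 2.30).

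Up to 500 kb the counts of broad loops did not fall with span as those of comparison loops did. Their median was 91 contacts at 35 to 50 kb, 114 at 70 to 100 kb, 123 at 140 to 200 kb and 112 at 280 to 500 kb. Comparison loops went from 40 to 26, 27 and 20 contacts over the same classes. At 500 kb to 1.5 Mb the 12 broad loops had a median of 78.5 contacts, and comparison loops 17. Median strength rose with span in both, from 3.09 to 11.6 in broad loops and from 2.30 to 4.82 in comparison loops. The quartiles of strength overlapped at 35 to 50 kb (2.57 to 4.04 for broad loops, 2.09 to 2.67 for comparison loops) and were apart from 50 kb up to 1.5 Mb.

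Not every broad loop was strong. In 41 the strength was below the class median, down to 0.654 of it. These had a median span of 60 kb, a median radius of 55.7 kb and 64 contacts, and 15 of them had a radius above their span. The 91 broad loops at least 4 times as strong as their class had a median span of 90 kb, a radius of 26.0 kb and 199 contacts. The weakest of all, chosen after its values were seen, lay on chromosome 17 (44190001 to 44195000 with 44235001 to 44240000). It had 49 contacts against 25.8 expected, with 27 pixels spread over a radius of 100.3 kb. In the authors' deposited table each of the 4 q-values was at or below 0.1 in 796 broad loops (99.5%), against 60.6% of comparison loops of like span and width and 72% of all loops. The 4 exceptions, on chromosomes 1, 3 and 17 (a pair), had 38 to 54 contacts and a radius of 60.6 to 101.2 kb.

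The broadest loop of the list lay on chromosome 1, between 156115001 to 156120000 and 156195001 to 156200000. Its 86 pixels had a radius of 162.8 kb around a pixel of 284 contacts, 25.6 expected, and filled 2.58% of their disc. The next lay on chromosome 11 (65185001 to 65190000 with 65265001 to 65270000) and held 78 pixels within 141.1 kb and 180 contacts. On chromosome 12, 54400001 to 54405000 met 54595001 to 54600000 with 150 contacts and 67 pixels within 88.7 kb. Here the vertical expectation, 48.8 contacts, was far above the horizontal one, 13.7. A loop on chromosome 15 (65480001 to 65485000 with 65560001 to 65565000) held 66 pixels and 391 contacts, and its anchors carried no other loop. The last of the 5 was on chromosome 1 (154970001 to 154975000 with 155020001 to 155025000), with 56 pixels and 180 contacts, the first by position of 3 loops of that pixel count. Of these 5 broadest loops, 4 spanned 80 kb or less, and each had pixels filling under 7% of their disc.

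The 5 highest counts were 541, 514, 440, 433 and 391 contacts, and 4 of the 5 loops lay on chromosome 15. The first joined 65610001 to 65615000 with 65675001 to 65680000 there, over 39 pixels within 32.9 kb. The others on that chromosome ran from 74925001 to 75065000 (440 contacts), from 75320001 to 75500000 (433) and from 65480001 to 65565000 (391, named above). Their strengths were 14.0, 15.7, 17.0 and 11.2. The loop of 514 contacts on chromosome 12 was also the strongest among those with an expectation of at least 1 contact (52.0). It was followed by the loop on chromosome 16 already named (46.3) and by a loop of 80 kb on chromosome 1 (54870001 to 54875000 with 54950001 to 54955000), with 306 contacts and a ratio of 23.7. The next were a loop on chromosome 4 (183855001 to 183860000 with 184180001 to 184185000, ratio 21.7) and another on chromosome 2 (121450001 to 121455000 with 121825001 to 121830000, ratio 21.5). Among comparison loops of like span, the class medians of strength beside these 5 ran from 2.63 to 7.05.

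Broad loops were unevenly spread over the chromosomes. They made up 3.82% of the loops of chromosome 15 (59 of 1543, exact interval 2.92 to 4.90%), 3.44% on chromosome 19 (51 of 1484), 2.98% on 17 (46 of 1543) and 2.82% on 1 (123 of 4368). At the other end were chromosome 21 with 0.474% (2 of 422, interval 0.0574 to 1.70%) and 13 with 0.740% (10 of 1351). The number at the list-wide share for loops of the same span and width was then taken as 1. Chromosome 15 was highest at 2.41, followed by 19 (1.82), 1 (1.65) and 17 (1.59), and chromosome 21 was lowest at 0.281. Loops cluster along chromosomes, so intervals based on independent loops are too narrow.

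**Figure D3:**
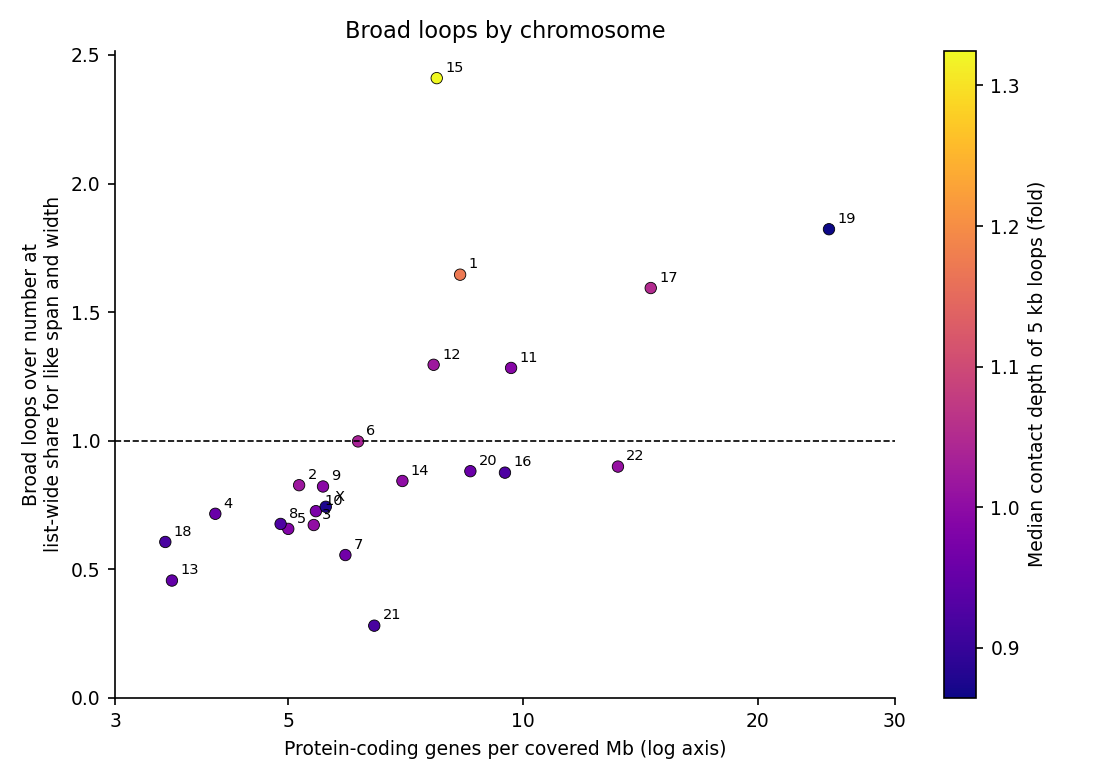
Broad loops on each of 23 chromosomes, divided by the number at the list-wide share for like span and anchor width (vertical axis, ratio), against protein-coding genes per covered Mb (horizontal axis, log scale), coloured by the median contact depth of 5 kb loops (fold of the list at like span). Chromosomes 15, 19, 1 and 17 lie highest, at 2.41, 1.82, 1.65 and 1.59. Of these, chromosome 19 has the most genes per covered Mb and low depth, and chromosome 15 has the highest depth.

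Both gene density and contact depth moved with the share of broad loops. Gene density here is the number of protein-coding genes that RefSeq assigns to a chromosome in GRCh38, a count that uses no position, over the hg19 length from first to last loop. Across 23 chromosomes, Spearman's rho with the standardised ratio was 0.77 for gene density, 0.54 for the median contact depth of 5 kb loops and 0.74 for loops per Mb. Without chromosome 15 the values were 0.78, 0.48 and 0.71. Without chromosomes 15 and 19 they were 0.74, 0.70 and 0.66, so gene density and depth were then nearly equal. These are descriptions over chromosomes of 1 map. Chromosome 19 had 24.7 genes per covered Mb and a depth of 0.864, and chromosome 15 had 7.75 genes per Mb and a depth of 1.32. The parts of gene density and depth in the result were not tested.

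On chromosome 15 the excess lay in the stretch from 62 to 88 Mb, where an earlier look at these data had found raised contact depth. HAP1 is known to carry an extra copy of a part of chromosome 15. In the stretch 41 of 681 loops were broad (6.02%, exact interval 4.35 to 8.08%), against 18 of 862 on the rest of the chromosome (2.09%, interval 1.24 to 3.28%) and 1.64% on all other chromosomes. Standardised to span and width the ratios were 3.99, 1.27 and 0.955. Broad loops in the stretch had a median of 167 contacts and 25.4 expected, and those on the rest of the chromosome 95 and 16.2. Their strength was nearly equal, 7.08 and 7.19, and so was their span, 90 and 85 kb. Contact depth and the share of broad loops moved together here, and the part of depth in that share was not tested. Chromosome 1 was split at its longest anchor-free stretch, 121340001 to 142650000. Beyond it, where the median contact depth of 5 kb loops was 1.34 times that of the list, 3.16% of loops were broad (70 of 2216, exact interval 2.47 to 3.97%). Before it, at a depth of 1.03, the share was 2.46% (53 of 2152, interval 1.85 to 3.21%), and the intervals overlapped.

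Broad loops lay in crowded neighbourhoods. The 800 loops fell into 586 of the 2797 windows of 1 Mb that held a loop, and 46 windows held 3 or more. Another broad loop lay within 500 kb for 391 of them (48.9%, exact interval 45.4 to 52.4%), and the median distance to the nearest was 515 kb. Measured in the same way, a broad loop lay within 500 kb of 27.6% of comparison loops of like span and width and of 30.2% of all loops. The most in a window was 5, on chromosome 12 (94 to 95 Mb, 25 loops in all), chromosome 15 (76 to 77 Mb, 25 loops) and chromosome 19 (49 to 50 Mb, 47 loops); these windows were chosen by their counts. A mean of 25.7 other loops lay within 500 kb of a broad loop, against 20.6 around comparison loops of like span and width. Broad loops lay inside a mean of 5.68 longer loops, against 4.53, and enclosed 1.48 shorter ones, against 1.13. In the map the nearest other loop was a median of 51.2 kb away, 0.833 of the class median, although merging takes in pixels close to a broad loop.

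Shared anchors were found in a larger share of broad loops than of comparison loops or of all loops, while the mean number of other loops at them lay between the values of those groups. An anchor was shared where it overlapped an anchor of another loop by at least 1 bp, after chained overlaps were merged. Of broad loops, 740 of 800 shared at least 1 anchor (92.5%, exact interval 90.5 to 94.2%), against 82.7% of comparison loops at matched span and width and 89.7% of all loops. Both anchors were shared in 463 (57.9%), against 43.7% and 55.5%. A mean of 3.76 other loops met the anchors of a broad loop, where matched comparison loops had 3.27 and all loops 4.07. The busier anchor was the lower one in 324 broad loops and the upper one in 314.

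This difference changed with the comparison. Against loops of 6 to 10 pixels at matched span and width, 92.5% of broad loops shared an anchor against 93.9%, a difference of -1.35 percentage points with limits of -3.40 and 0.378, which include 0. These limits carry the counting error of the broad loops and take the comparison value as fixed; for the difference from loops of 2 to 5 pixels, 9.82 points, they were 7.78 and 11.6. Fewer other loops met the anchors of broad loops than those of 6 to 10 pixels (3.76 against 4.06, limits of the difference -0.434 and -0.164). Limits for other loops, here and below, treat their summed number as a Poisson count. They are too narrow where broad loops vary more than such a count. When loops of 2 to 5 pixels were matched on the donut expectation as well, 679 broad loops could be matched, and 92.2% of them shared an anchor against 95.1% (limits of the difference -5.20 and -1.01 points). With the number of loops within 500 kb matched too, an alternative chosen after the data had been seen, the shares were 92.5% and 86.1%. The other loops per broad loop then numbered 3.76 against 3.77, a difference whose limits, -0.147 and 0.123, include 0. Over pixel classes with 5 kb anchors, the share was 91.0% for 1 pixel, 86.8% for 2 to 5, 94.6% for 6 to 10, 95.9% for 11 to 19, 93.4% for 20 to 29, 91.2% for 30 to 39 (114 loops) and 82.1% for 40 or more (39 loops). The share thus had no single direction over the classes, being lower at 2 to 5 pixels than at 1 and highest at 11 to 19. These classes are not matched, and their median spans ran from 160 kb at 1 pixel to 75 kb at 30 to 39.

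**Figure D4:**
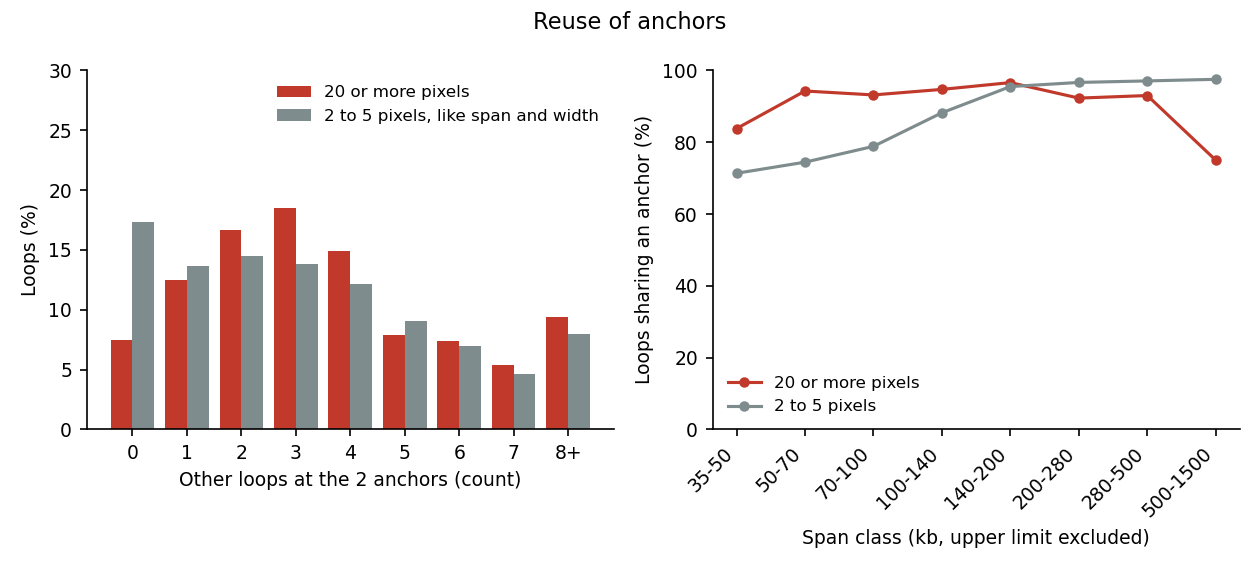
Left, share of loops (%) by the number of other loops at their 2 anchors, for broad loops (red) and for loops of 2 to 5 pixels weighted to the same span and width (grey). Right, share of loops with a shared anchor (%) by span class for the same groups, 5 kb anchors only. Fewer broad loops have no other loop at their anchors (7.50% against 17.3%), and the lines cross between the classes of 140 to 200 and 200 to 280 kb.

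The excess in sharing was found at short spans. At 35 to 50 kb, 83.8% of broad loops shared an anchor against 71.4% of comparison loops, at 50 to 70 kb 94.3% against 74.5%, and at 100 to 140 kb 94.7% against 88.2%. At 140 to 200 kb the shares were 96.6% and 95.5%. At 200 to 280 kb the order was reversed, 92.3% (52 loops) against 96.7%, as it was at 500 kb to 1.5 Mb, 75.0% (12 loops) against 97.5%. Among broad loops, 60 had no other loop at either anchor. The loops of 514 and 164 contacts on chromosomes 12 and 16 were among them, as was the loop of 391 contacts on chromosome 15.

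Broad loops met each other at an anchor about as often as loops in general met a broad loop. Of the 1573 merged anchors they used, 74.8% were used by at least 1 other loop and 238 (15.1%) held 5 or more loops, against 45.9% and 6.71% of all 47497 anchors. Anchors with more loops have more chances to hold a broad one, so these shares are not compared further. Only 26 anchors held more than 1 broad loop, and 47 broad loops (5.88%, exact interval 4.35 to 7.74%) shared an anchor with another. An anchor shared with a broad loop was found for 4.16% of comparison loops of like span and width, just below that interval, and for 6% of all loops, within it. Linked through such anchors, broad loops formed 18 pairs and 3 longer chains, the longest of 5, and 753 stood alone. The only anchor with 3 broad loops lay on chromosome 15 at 67065001 to 67070000, and these were all the loops it held. It met 66910001 to 66915000 with 166 contacts, 66990001 to 66995000 with 133 and 67140001 to 67145000 with 86. Their strengths were 7.58, 3.72 and 3.28, each above the class median (3.85, 2.63 and 2.63).

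The other 25 anchors held 2 broad loops each, and the first 4 by position were on chromosome 1. All 4 loops at 90450001 to 90460000 ran to lower coordinates. Of the 5 loops at 161190001 to 161200000, 4 ran to higher coordinates. At 181005001 to 181010000 there were the 2 broad loops only, both running to higher coordinates. The busiest of these, 197885001 to 197890000, carried 11 loops. Of these, 7 ran to lower coordinates, both of its broad loops included. Which genes lie at these anchors, and in which direction their CTCF motifs point, was not analysed here.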

How the data were processed

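Contact maps of 6 Micro-C libraries of wild-type HAP1 cells underlie 1 loop list, analysed as deposited. Per the file headers it was written by juicer_tools version 1.22.01; per the submitters' processing notes BWA and hg19 were used, with no step named. Sequencing depth, the caller's options and any pooling were not given in the sources used here. Each row deposited by the authors holds the raw contact count of a pixel, the expected contacts from 4 surroundings, q-values (adjusted p-values), the count of merged pixels, and radius and positions in bp. Positions are printed 1-based. No hg19 genome or annotation was used, so no sequence or gene is named.

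From these values, strength (observed over donut expectation) and span were computed. Broad loops (at least 20 pixels) were set against loops of 2 to 5 pixels in classes of anchor width and span (4 bins per doubling, at least 20 comparison loops), as ratios to the class median or as class-weighted shares. Loops named are the 5 with most pixels, the 5 with highest counts, the 5 strongest with at least 1 expected contact, the 3 longest, the 3 shortest and the 5 anchors with most broad loops, with ties by position; the chromosomes highest and lowest after standardisation are named too. The members, classes and lists were chosen with earlier results of these data known. Intervals (95%) are exact and treat loops as independent. Those for other loops per broad loop treat the summed number as a Poisson count. Functions were tested on simulated data. Alternatives were the pixel limit, the comparison loops, the span bins, the anchor width, the surroundings, the anchor distance, the chromosome 15 stretch and further matching. Python 3.11.15, numpy 2.4.6, pandas 2.3.3, scipy 1.17.1, networkx 3.6.1 and matplotlib 3.10.9 were used.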

Additional observations from a re-analysis of the deposited data

How the results depend on the processing

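Of 72 alternative values, 38 lay inside the 95% interval of the main value (6 of these, from 5 kb loops alone, were identical by construction, which leaves 32), 29 lay outside it (counts: beyond 1.5 times) and 5 had the other sign. With a limit of 15 pixels there were 1914 broad loops and with 30 there were 153, with median spans of 95 and 75 kb. The matched ratios then were 3.71 and 9.26 for radius, 3.56 and 4.48 for observed counts and 1.66 and 2.15 for the donut expectation; the excess of other loops per broad loop at the limit of 30 was 0.784, against 0.487. At 30 pixels the share of broad loops relative to the whole list was 3.37 on chromosome 15 and 6.29 in its stretch, against 2.24 and 3.53. Against loops of 6 to 10 pixels the ratios were 2.28 for radius, 2.34 for observed counts, 1.42 for the donut expectation and 1.65 for strength; the difference in sharing was -1.35 percentage points (limits -3.40 and 0.378, so not told apart from 0) and that in other loops -0.301. Matched on the donut expectation too, the ratios were 4.41 for radius, 2.48 for observed counts and 2.39 for strength. Strength divides the count by the expectation matched here, so its ratio restates that of counts up to bin width. The differences were then -2.92 points for sharing and -1.20 for other loops, and 121 broad loops found no match. Horizontal and vertical surroundings gave strength ratios of 1.89 and 1.88. With anchors within 10 kb counted as the same, the excess in sharing was 5.25 points and that in other loops 1.95. Of the alternatives chosen after seeing the data, matching on the depth of neighbouring loops gave 3.67 for observed counts, and leaving out loops whose radius exceeds their span gave 4.27 for counts and 2.34 for strength. Matching on the number of loops within 500 kb gave 6.42 points for sharing and -0.0136 for other loops (limits -0.147 and 0.123). The causes of these changes were not tested. With 10 kb loops alone no value could be had, since none is broad. No paired analysis was possible because the list does not tell the replicates apart, nor could replicates be left out. Single loops are limited by counts as low as 38.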

Other observations

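In 2 of the 800 broad loops the lower-left expectation was under 0.5 of the donut expectation (exact interval of the share 0.0303 to 0.900%), as in 25 of the 25715 comparison loops (0.0972%). These 2 loops were picked out after their values had been seen. The first is the 990 kb loop on chromosome 12 with 514 contacts, whose lower-left expectation was 0.953 contacts and whose donut expectation was 9.88, where loops of 2 to 5 pixels and like span had a median of 2.36. Between its anchors lay 42 anchors of other loops. The other joined chromosome 11 at 46420001 to 46425000 with 46585001 to 46590000, a span of 165 kb, through 188 contacts over 24 pixels. Its donut expectation was 0.519 contacts and its lower-left one 0.213, where loops of like span had a median of 7.02, and no anchor of another loop lay between its own. Its horizontal and vertical expectations were 1.32 and 0.453 contacts. Its ratio of 362.5 was the highest of any broad loop and rests on a very small expectation. Whether the count of this loop was affected as well was not tested. The 1120 kb loop on chromosome 16 lay just above the limit of 0.5. Its lower-left expectation was 1.78 contacts and its donut expectation 3.54.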
